A study of Danio rerio with 12 samples.

Results

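White skeletal muscle of non-exercised zebrafish (Danio rerio) was compared between fish that carried a mutated glucocorticoid receptor (Gr) and wild-type fish. The comparison used 6 of the 12 libraries of the series, 3 Gr mutant resting and 3 Wild-type resting. It covered 15011 of the 31962 genes counted, those that reached 10 counts in 3 or more of these 6 libraries, across all pathways. The Gr mutants belonged to the gr s357 line, in which a point mutation lies in the DNA-binding domain of the receptor. The wild-type fish were 3 months old when a zebrafish facility supplied them, and the age of the mutants and the sex of the fish are not given in the sources used here. The non-exercised group held fish of both genotypes and was kept for 4 weeks in a swim tunnel at a water flow of 0.1 m per s, at which the fish moved freely, and fish were genotyped only afterwards. The remaining 6 libraries came from fish of the same 2 genotypes that were trained at 0.4 m per s, and served here as a second set of fish for the same genotype comparison. The wild-type fish were not described as siblings of the mutants, so the receptor mutation and the genetic background of the line cannot be told apart in any result below. The paper also reports that the Gr mutants were bigger than the wild-type fish, and the part of body size in these levels was not tested.

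Cortisol, the main glucocorticoid of bony fish, acts on transcription through Gr. The receptor waits in the cytoplasm in a complex with Hsp90 and immunophilins such as Fkbp4 and Fkbp5, enters the nucleus when it binds cortisol, and changes the transcription of genes near its binding sites on DNA. In skeletal muscle of mammals it is known to shift fuel use from glucose towards fat, to release amino acids from protein, to act on clock genes and to dampen inflammation. White muscle, which makes up most of the fillet, consists of fast fibres that depend largely on glycolysis.

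Counts per library ranged from 11076993 to 13894240 in the resting fish, and the 10 most abundant genes took 35.4 to 42.0% of them. Levels are given in CPM, which are counts scaled to a common library total with edgeR's trimmed mean of M values (TMM). The most abundant transcripts were those of fast muscle, with the myosin heavy chain myhc4 at 68294 CPM ± 19664 (SD, n = 3) in wild-type fish and 73670.3 ± 33797 in mutants, and the creatine kinases ckmb and ckma next to it. The creatine kinase ckma had 50919 CPM ± 8592 in wild-type fish and 27576 ± 7002 in mutants, and no gene among the 5 most abundant (myhc4, ckmb, nme2b.2, actc1b, ckma) passed the test. The common coefficient of biological variation was 0.351. The first principal component of log2 CPM took 40.7% of the variance and placed the wild-type libraries between -53.7 and -28.0, Gr mutant libraries 1 and 2 at 57.2 and 65.7, and Gr mutant library 3 at -1.13. Library 3 therefore lay between the others on this axis, and the main results that rest on it, or are hidden by it, are given below with and without it. P-values measure the spread between 3 fish per group.

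Few genes passed the test, and most of those that did were lower in the mutants. Under the quasi-likelihood F-test of edgeR, with p-values adjusted by the Benjamini-Hochberg method, 35 genes had an adjusted p under 0.05 (0.233% of those tested). Of these, 28 were lower in Gr mutants (0.187%) and 7 were higher (0.0466%), and the 2 groups of libraries did not overlap for any of the 35. The log2 fold changes of the 28 lower genes ran from -8.14 for fkbp5 to -1.76 for mych. At an unadjusted p under 0.05, 2589 genes (17.2%) passed, 1487 of them higher (9.91%) and 1102 lower (7.34%). DESeq2's Wald test on the same genes called 691 (4.6%), 318 higher (2.12%) and 373 lower (2.48%), and included all 35. The groups did not overlap for 3285 genes (21.9%), 1602 higher (10.7%) and 1683 lower (11.2%). A gene that passed the count filter only through the group in which it was high had to differ, and this held for 5 of the 28 lower genes and 2 of the 7 higher ones. Rises and falls below are those of edgeR's test, and DESeq2's test is named where it alone was passed. The genes adipoqb, aglb, arntl1a, chac1, col1a1a, col1a2, efna1b, fabp11a, fgfbp2a, gapdh, glula, gsdf, hif1al, itgam, lrfn5b, lyz, mpx, mych, nr1d1, ppargc1a, rasgef1ba, slc43a2a, smpdl3b, tgm2a, ucp3, ANPEP (3 of 5), si:ch211-155m12.1 and si:dkey-201c13.2 were named after their values were seen, and the others by rule.

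**Figure D1:**
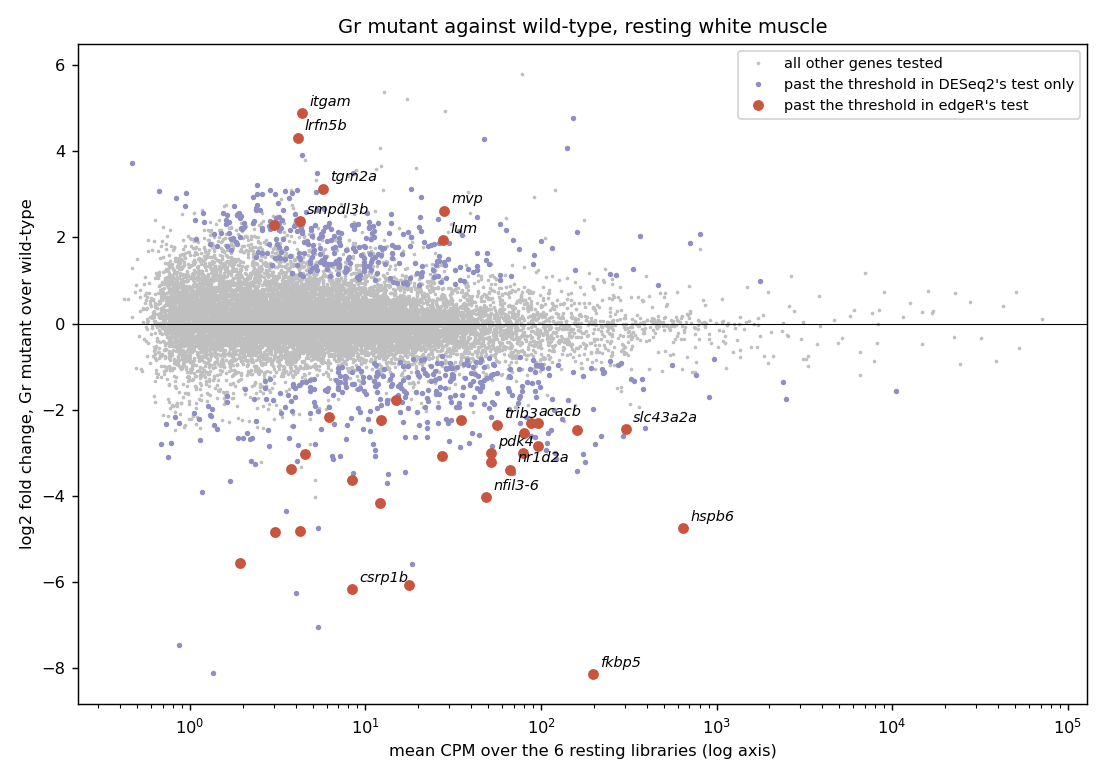
Each point is 1 of 15011 genes, with the mean CPM over the 6 resting libraries on a log axis against the log2 fold change of Gr mutant over wild-type. Red points are the 35 genes past the threshold in edgeR's test, with fkbp5 lowest at -8.14 and itgam highest at 4.89, and violet points passed only DESeq2's test.

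The receptor's own transcript did not differ measurably, whereas the gene of its co-chaperone Fkbp5 was almost silent in the mutants. The gene nr3c1, which encodes Gr, had 40.5, 43.3 and 29.5 CPM in the wild-type libraries and 39.2, 49.7 and 51.3 CPM in the mutants. These ranges overlapped (log2 fold change 0.31 ± 0.25 SE, adjusted p = 0.57), and a count per gene does not show a point mutation. The mineralocorticoid receptor gene nr3c2, whose product also binds cortisol, was low in both groups, with 2.48 ± 0.325 CPM in wild-type fish and 2.63 ± 0.952 in mutants (log2 fold change 0.09 ± 0.35 SE), and its sign turned to -0.23 without Gr mutant library 3. The gene fkbp5 encodes an immunophilin that holds Gr in a state of low hormone affinity and is itself among the best known Gr targets. Its level was 88.2, 477 and 611 CPM in wild-type fish and 1.06, 1.76 and 1.28 CPM in mutants. Every mutant library was thus at least an order of magnitude under the lowest wild-type library (log2 fold change -8.14 ± 0.83, adjusted p = 0.019). The gene hsd11b2 encodes the dehydrogenase that inactivates cortisol. It had 91.3, 399 and 386 CPM in wild-type fish and 37.5, 21.4 and 21.9 CPM in mutants, without overlap (log2 fold change -3.42 ± 0.58, adjusted p = 0.074 in edgeR and 4.6e-08 in DESeq2). The steroid dehydrogenase gene hsd20b2, which acts on cortisone in zebrafish, stood at 7.34 ± 5.63 CPM against 0.769 ± 0.369 (adjusted p = 0.097, and 9.6e-05 in DESeq2). The corepressor gene ncor1 was 1.82-fold lower and passed only DESeq2's test, while the immunophilin gene fkbp4 differed by a log2 fold change of 0.48 ± 0.31. Over the 22 tested genes for cortisol receptors, chaperones and hormone handling, fkbp5 alone fell and none rose. DESeq2 called 4 of the 22 lower (18.2%, against 2.48% of all genes) and 0 higher. Their median log2 fold change was -0.04 (-0.11 to 0.06 with each library left out), beside 0.05 over all genes tested.

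A list of 58 tested genes known in mammals or fish to respond to glucocorticoids was shifted downwards. This list, like all gene lists here, was chosen with earlier results of these data known. Its shares therefore describe these libraries and are no independent test. In edgeR's test 3 of them fell (fkbp5, pdk4 and gadd45ba) and 0 rose, and the median log2 fold change was -0.94. DESeq2 called 22 lower and 1 higher, which is 37.9% lower against 2.48% of all genes, and 28 of the 58 lay below the wild-type range in all mutants, against 11.2% of all genes. The summed level of the list was 3904, 3914 and 6057 CPM in the wild-type libraries and 1827, 995 and 2536 CPM in the mutants. The lowest wild-type library was thus above the highest mutant library. The gene gadd45ba, whose product restrains cell growth under stress, had 146, 137 and 139 CPM in wild-type fish and 13.6, 9.59 and 28.8 CPM in mutants (log2 fold change -3.01 ± 0.42, adjusted p = 0.044).

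Several classical targets lay apart between the groups without passing edgeR's threshold, with adjusted p-values between 0.064 and 0.16. The gene klf9, a zinc finger repressor that glucocorticoids induce in many tissues, had 27.7, 43.6 and 36.7 CPM in wild-type fish and 1.81, 0 and 0.295 CPM in mutants (log2 fold change -5.58 ± 0.93, adjusted p = 0.074). The gene tsc22d3, which encodes the anti-inflammatory protein Gilz, had 120.5, 109.5 and 149 CPM against 22.8, 13.9 and 39.1 CPM (log2 fold change -2.31 ± 0.40, adjusted p = 0.074). Neither gene overlapped between the groups, and both passed DESeq2's test. The same held for foxo3b, a Forkhead factor of the muscle atrophy programme (147, 92.7 and 108 CPM against 27.9, 40.8 and 28.5 CPM, adjusted p = 0.064), for the kinase gene sgk1 (4.55-fold lower, adjusted p = 0.10), for lpin1, which encodes a phosphatidate phosphatase (5.59-fold lower, adjusted p = 0.091), and for nfkbiab, which encodes the NF-kB inhibitor I kappa B alpha (2.98-fold lower, adjusted p = 0.097). The hypoxia-inducible factor gene hif1al had 109, 258 and 596 CPM against 21.8, 20.5 and 60.1 CPM (adjusted p = 0.11, and 2.5e-05 in DESeq2). The factor genes cebpd (log2 fold change -2.76 ± 0.72) and foxo1a (-1.94 ± 0.48) and the mTOR inhibitor gene ddit4 (-1.88 ± 0.53) passed only DESeq2's test.

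Most other textbook targets overlapped between the groups or had larger adjusted p-values in edgeR's test. The clock gene per1a had 29.1, 23.9 and 24.6 CPM in wild-type fish and 21.7, 2.32 and 1.08 CPM in mutants, without overlap. Mutant library 1 lay close to the wild-type range and the others far below it (adjusted p = 0.42). This gene passed the threshold in 1 of 15 alternative fits. The phosphatase gene dusp1 (log2 fold change -0.75 ± 0.38), the clock gene per1b (-0.48 ± 0.33), the factor gene zbtb16a (-1.20 ± 0.71) and the binding protein gene igfbp1a (-0.68 ± 0.61) overlapped between the groups. The factor gene cebpb was 1.80-fold lower without overlap but passed neither test (adjusted p = 0.19, and 0.096 in DESeq2). The metallothionein gene mt2 had 17.1, 0.376 and 2.36 CPM in mutants and 1.86 to 3.89 CPM in wild-type fish, and its log2 fold change turned from 1.41 to -0.98 without mutant library 1. The gene fbxo32, which encodes the atrophy ubiquitin ligase atrogin-1, lay between 11.5 and 99.5 CPM in wild-type fish and between 1.94 and 103 CPM in mutants (log2 fold change -0.76 ± 1.26). Neither pck1 nor a gene under the symbol hif3a was among the genes tested. The suppressor of cytokine signalling socs3b was the 1 list member that DESeq2 called higher, with 7.33, 6.69 and 4.74 CPM in wild-type fish and 17.8, 17.4 and 30.9 CPM in mutants (adjusted p = 0.085 in edgeR). Over the 47 tested genes for muscle atrophy and ubiquitin ligases, edgeR called 0 in either direction. At an unadjusted p under 0.05, 3 were higher (6.38%, against 9.91% of all genes) and 8 lower (17.0%, against 7.34%). DESeq2 called 1, the ligase gene fbxo40.2, at 49.0 ± 4.13 against 15.5 ± 11.8 CPM.

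**Figure D2:**
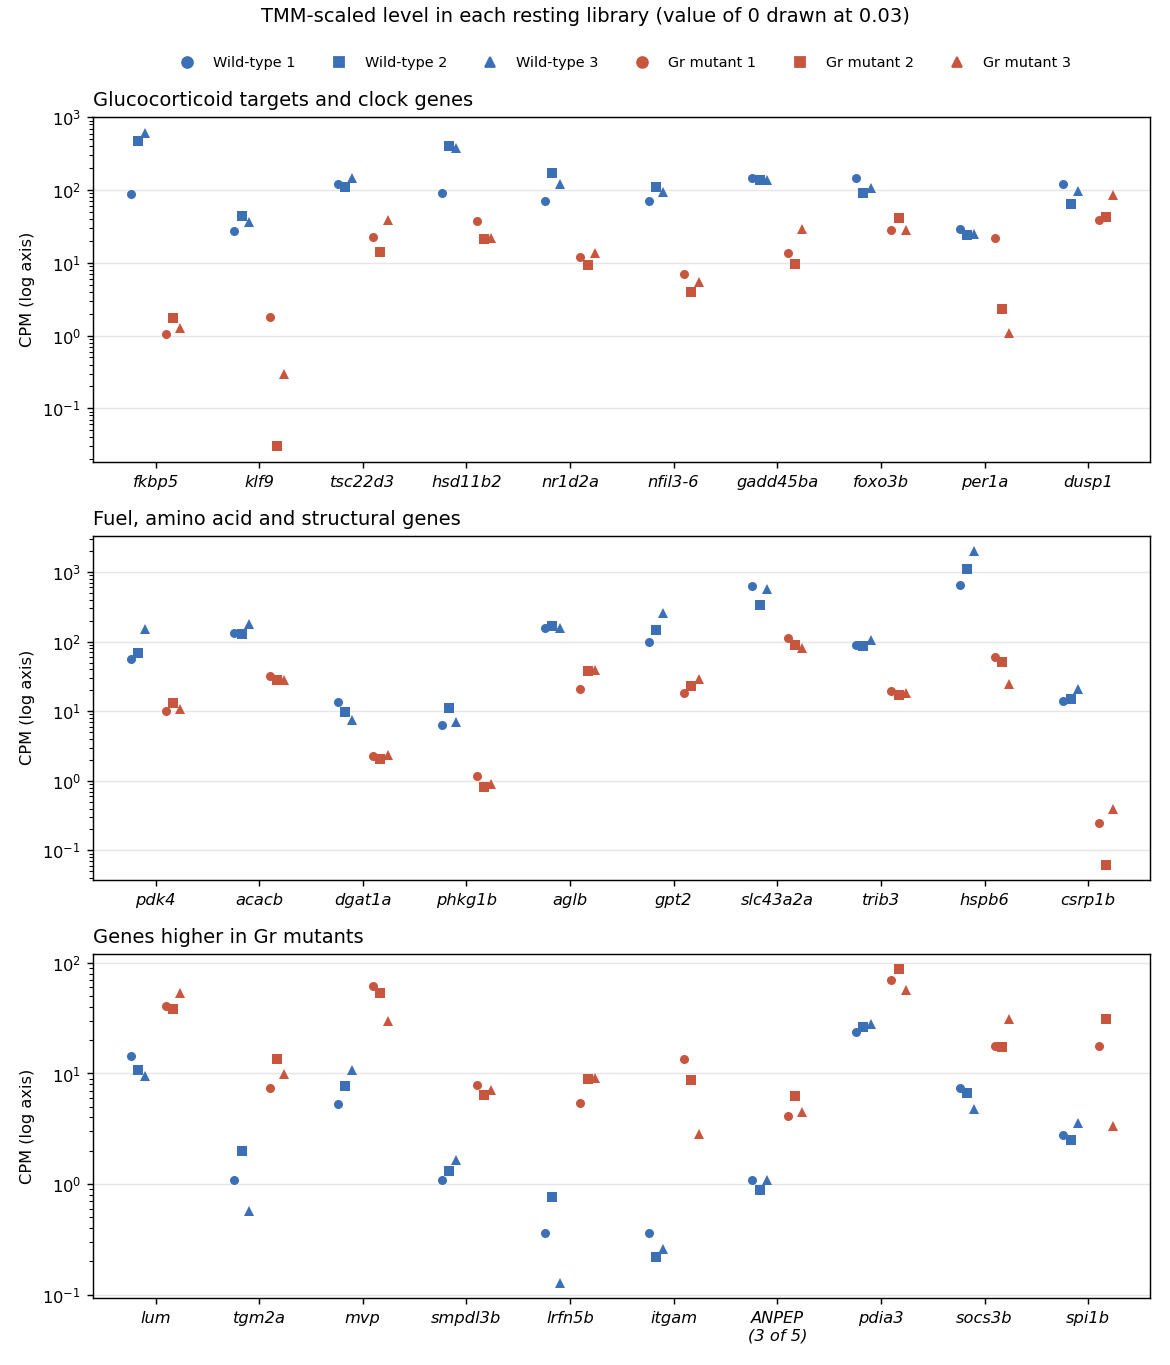
Each symbol is the TMM-scaled level of a gene in 1 resting library on a log axis, blue for wild-type and red for Gr mutant, with a circle, square and triangle for libraries 1, 2 and 3, and a value of 0 drawn at 0.03. The lowest wild-type library lies above every mutant library for fkbp5 (88.2 against 1.76 CPM or less), whereas for dusp1 the ranges overlap and for spi1b mutant library 3 (3.35 CPM) lies within the wild-type range.

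Among 43 tested clock genes, 2 repressors of the feedback loops fell and 0 rose. The gene nfil3-6 encodes a relative of Nfil3, which represses D-box genes in mammals. It had 71.4, 109 and 95.5 CPM in wild-type fish and 7.07, 4.01 and 5.51 CPM in mutants (log2 fold change -4.04 ± 0.33, adjusted p = 0.011). The gene nr1d2a, which encodes a Rev-erb beta type repressor of Bmal1 transcription, had 71.5, 174 and 122 CPM against 11.9, 9.28 and 13.5 CPM (log2 fold change -3.39 ± 0.38, adjusted p = 0.019). In both cases all mutant libraries were far below all wild-type libraries. The related repressor gene nr1d1 had 82.1, 58.3 and 58.9 CPM against 37, 5.71 and 3.94 CPM and passed neither test (adjusted p = 0.23), with mutant library 1 again the highest of its group. It passed the threshold in 1 of 15 alternative fits. The Bmal1 gene arntl1a, which is under Rev-erb repression in mammals, was low, with 0.543, 0.658 and 0.448 CPM against 1.5, 3.82 and 4.14 CPM (adjusted p = 0.091, and 0.0030 in DESeq2). It passed the count filter only through the mutants, so that the groups had to differ. The interaction of genotype and swimming was -2.41 ± 0.55 SE for arntl1a (adjusted p = 0.49 in edgeR). It includes the resting rise that the filter fixed, and the gene was named after its values were seen. This value is therefore a description and no independent test. A negative value means that the log2 fold change of Gr mutant over wild-type was lower in swimming fish than at rest. The gene nr1d2a had a log2 fold change of -4.25 in swimming fish. DESeq2 called 6 clock genes lower (14.0%, against 2.48% of all genes), among them the repressor gene bhlhe41 (3.23-fold), and 2 higher (4.65%, against 2.12%). The median of the list was -0.39. Without mutant library 1, 5 of 39 clock genes fell and 1 rose. In that fit 43 of all 14248 genes fell and 12 rose. EdgeR called 0 clock genes without Wild-type library 2 or 3 or mutant library 2. The hour at which each fish was sampled is not given in the sources used here, and its part in these levels was not tested.

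Of 63 tested genes for glucose and glycogen use 2 fell and 0 rose, and these act on glycogen breakdown and on the use of pyruvate in the mitochondrion. The gene pdk4, which encodes the kinase that shuts off pyruvate dehydrogenase and is a Gr target in mammals, had 56.3, 68.8 and 152 CPM in wild-type fish and 10.01, 13.17 and 10.8 CPM in mutants (log2 fold change -3.01 ± 0.41, adjusted p = 0.040). The gene phkg1b, which encodes the catalytic subunit of muscle phosphorylase kinase, had 6.33, 11.0 and 6.98 CPM against 1.19, 0.815 and 0.886 CPM (log2 fold change -3.03 ± 0.34, adjusted p = 0.019). The glycogen debranching enzyme gene aglb, which was not on the list, had 155, 167 and 159 CPM against 20.6, 37.8 and 38.4 CPM (log2 fold change -2.31 ± 0.30, adjusted p = 0.038). All 3 genes were lower in every mutant than in any wild-type fish. The median of the list was -0.54, with 43 negative and 20 positive log2 fold changes. DESeq2 called 14 members lower and 1 higher, which is 22.2% lower against 2.48% of all genes, and at an unadjusted p under 0.05 21 were lower and 8 higher. Among the 14 was the glycolytic gene gapdh, with 15798, 19093 and 12387 CPM against 3561, 3861 and 8488 CPM (adjusted p = 0.18 in edgeR). Mutant library 3 was the mutant nearest to the wild-type fish for gapdh, and without this library 12 of 62 fell, against 1.19% of all genes in that fit, 2 rose and the median was -0.95. EdgeR called 0 of the list without Wild-type library 2 or 3 or mutant library 2. With each library left out the median ran from -0.95 to -0.35.

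Most lipid genes had negative log2 fold changes. Of 63 tested genes for fatty acid oxidation and lipid storage 2 fell and 0 rose, 53 had a negative log2 fold change, and the median was -0.57. The gene acacb encodes the acetyl-CoA carboxylase whose product, malonyl-CoA, blocks fatty acid entry into mitochondria in muscle. It had 134, 129.6 and 177 CPM in wild-type fish and 31.8, 28.0 and 28.5 CPM in mutants (log2 fold change -2.31 ± 0.25, adjusted p = 0.019). The triglyceride synthase gene dgat1a had 13.5, 9.65 and 7.43 CPM against 2.25, 2.07 and 2.36 CPM (log2 fold change -2.18 ± 0.30, adjusted p = 0.040). DESeq2 called 10 members lower (15.9%, against 2.48% of all genes) and 0 higher, with genes of fat oxidation and of fat synthesis among them. The uncoupling protein gene ucp3 had 199, 344 and 380.4 CPM against 20.3, 11.7 and 80.1 CPM, and the gene of the mitochondrial coactivator Pgc-1 alpha, ppargc1a, had 5.79, 11.2 and 56.9 CPM against 0.938, 2.51 and 3.15 CPM (adjusted p = 0.13 and 0.14 in edgeR). The adiponectin receptor gene adipor2, not on the list, had 181, 88.7 and 182 CPM against 35.1, 20.4 and 17.3 CPM (adjusted p = 0.064, and 1.1e-07 in DESeq2). It belongs to the adipocyte markers, whose summed level was 399, 321 and 315 CPM in wild-type fish and 234, 174 and 175 CPM in mutants, without overlap. These sums include adipor2 itself, so their separation does not show a shift of the list as a whole. The median log2 fold change of the list was 0.02. Of the 12 markers tested, 6 of which are also on the lipid list, 6 had a negative log2 fold change, and edgeR called 0 (1 higher and 1 lower at an unadjusted p under 0.05) and DESeq2 called adipor2 alone. The fat cell genes fabp11a (94.5 against 90.5 CPM on average) and adipoqb (7.10 against 7.44 CPM) overlapped between the groups. The part of fat cells in the lipid genes was not tested.

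Mitochondrial transcripts mostly had negative log2 fold changes, and none passed edgeR's test. Of 83 tested nuclear genes of the respiratory chain 77 had a negative log2 fold change, with a median of -0.38, and edgeR called 0. At an unadjusted p under 0.05, 0 were higher and 3 lower, which is 3.61% lower against 7.34% of all genes. DESeq2 called 1 lower, the succinate dehydrogenase gene sdha, at 367, 404 and 359 CPM in wild-type fish and 167, 164 and 260.0 CPM in mutants. All 13 genes of the mitochondrial genome had a negative log2 fold change, with a median of -0.86, and again 0 passed edgeR's or DESeq2's test (1 lower at an unadjusted p under 0.05). They took 6.66 to 7.99% of all counts in wild-type libraries and 3.72 to 4.95% in mutant libraries, so that these shares did not overlap. After TMM scaling mutant library 3 moved into the wild-type range for most of them, as for mt-cyb with 9572, 11630.1 and 6066 CPM against 2677, 2747 and 6455 CPM. Without mutant library 3 the medians of these 2 lists were -0.74 and -1.37, and without mutant library 2 they were -0.17 and -0.68.

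**Figure D3:**
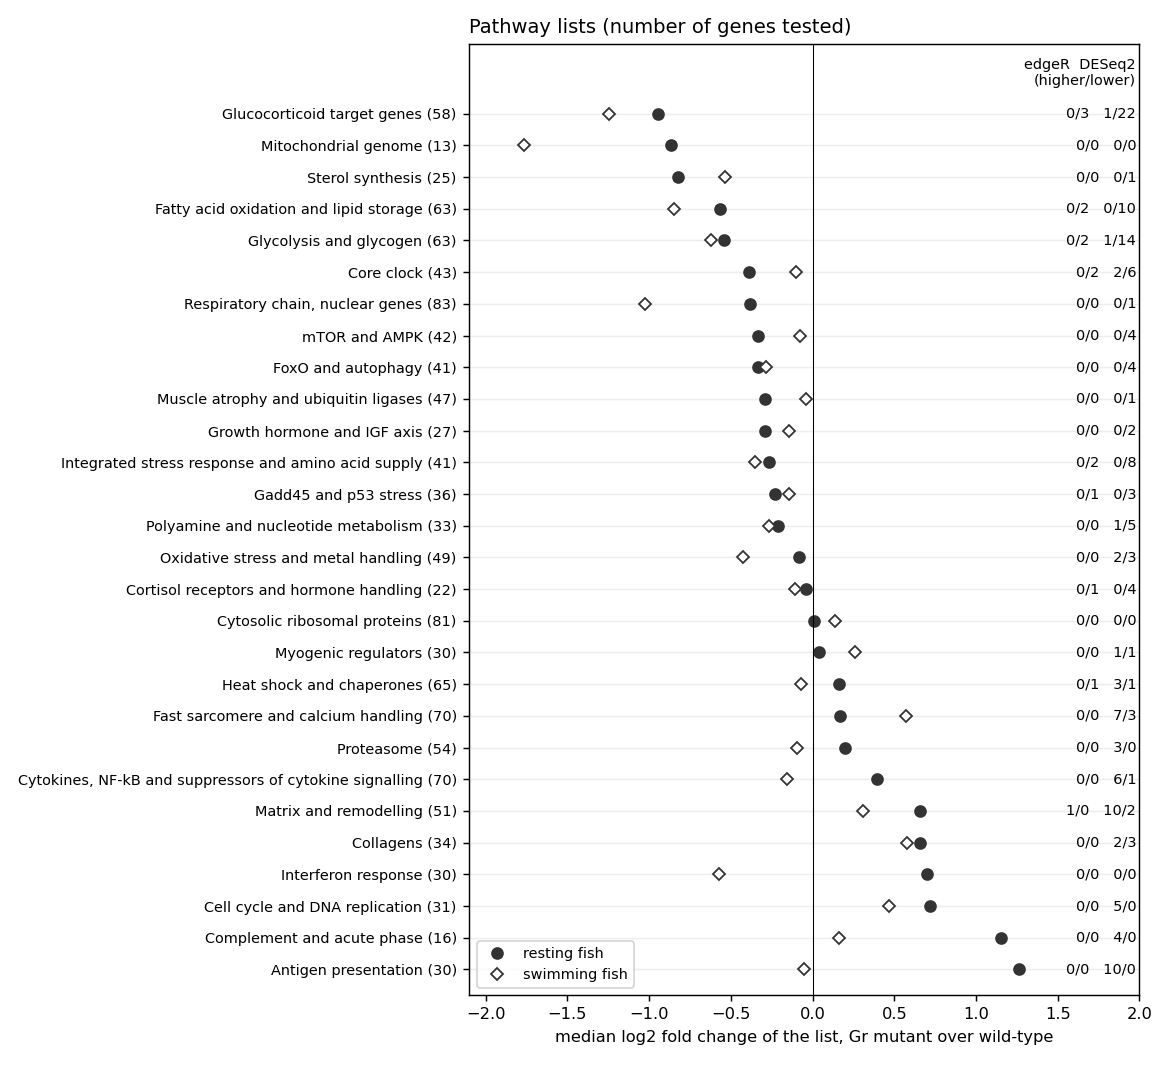
The median log2 fold change of Gr mutant over wild-type is shown for 28 pathway lists, with the number of genes tested in brackets, in resting fish (filled circles) and in swimming fish (open diamonds). The columns at the right count the genes higher and lower at rest in edgeR's and DESeq2's tests, and the glucocorticoid target list lies lowest at rest, at -0.94 with 3 lower in edgeR and 22 in DESeq2, while the mitochondrial genome list lies lowest in swimming fish at -1.77 and also at rest without mutant library 3.

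Genes of amino acid handling and of the response to amino acid shortage included 2 that fell and 0 that rose among 41 tested. The gene trib3, which encodes a pseudokinase induced by Atf4 in mammals, had 90.4, 86.7 and 104 CPM in wild-type fish and 19.6, 16.9 and 18 CPM in mutants (log2 fold change -2.36 ± 0.23, adjusted p = 0.019). The alanine aminotransferase gene gpt2 had 98.5, 147 and 261 CPM against 18.3, 22.8 and 29.1 CPM (log2 fold change -2.84 ± 0.41, adjusted p = 0.048). The groups were well apart for both, and the spread among mutants was small. The neutral amino acid transporter gene slc43a2a, not on the list, had 635, 335 and 577 CPM against 111, 90.2 and 80.1 CPM (log2 fold change -2.45 ± 0.34, adjusted p = 0.044). DESeq2 called 8 list members lower (19.5%, against 2.48% of all genes) and 0 higher. They included chac1, which encodes a glutathione-degrading enzyme of the same response, with 611, 616 and 758 CPM against 107, 65.1 and 195 CPM, and the glutamine synthetase gene glula, 6.37-fold lower (adjusted p = 0.086 and 0.091 in edgeR). The median of the list was -0.27.

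A pair of muscle structure genes were among the largest falls. The small heat shock protein gene hspb6, whose mammalian product protects the contractile apparatus, was the most abundant of the 35 genes, with 647, 1089 and 1987 CPM in wild-type fish and 61.0, 50.2 and 24.9 CPM in mutants (log2 fold change -4.75 ± 0.57, adjusted p = 0.025). The LIM protein gene csrp1b had 13.8, 14.8 and 20.9 CPM against 0.25, 0.0627 and 0.394 CPM (log2 fold change -6.17 ± 0.48, adjusted p = 0.011), and passed the count filter only through the wild-type libraries. Over 70 tested genes of the fast sarcomere and of calcium handling edgeR called 0, and the median was 0.17 (-0.23 to 0.38 with each library left out). At an unadjusted p under 0.05, 10 were higher (14.3%, against 9.91% of all genes) and 3 lower (4.29%, against 7.34%). DESeq2 called 7 higher (10%, against 2.12% of all genes) and 3 lower (4.29%, against 2.48%). Those higher included the myosin heavy chain gene myhb (7.24, 4.17 and 2.56 CPM against 47.5, 202 and 21.2 CPM), the actin gene acta1b (15.1, 22.4 and 10.6 CPM against 479, 291 and 29.8 CPM) and the myosin-binding protein gene mybpc2a (2.19-fold). For all 3 the mutants lay above the wild-type range, but the mutants differed among themselves by about an order of magnitude or more for myhb and acta1b. Without mutant library 3 edgeR called 5 of 70 higher and 1 lower, against 2.5% and 1.19% of all genes in that fit. In that fit myhb (adjusted p = 0.024) and acta1b (adjusted p = 0.017) passed edgeR's test. The myogenic factor gene myf5, which marks muscle progenitors, was low in all fish, at 0.564 ± 0.0621 against 2.05 ± 0.454 CPM (adjusted p = 0.10), and passed the count filter only through the mutants. Other lists that bear on growth gave 0 calls in edgeR, namely those for the growth hormone and IGF axis (1 higher and 5 lower of 27 at an unadjusted p under 0.05, 0 and 2 in DESeq2), FoxO and autophagy (0 and 6 of 41, 0 and 4 in DESeq2) and mTOR and AMPK (1 and 9 of 42, 0 and 4 in DESeq2). The lower shares of these 3 lists were 18.5, 14.6 and 21.4% at the unadjusted p, against 7.34% of all genes. In DESeq2's test they were 7.41, 9.76 and 9.52%, against 2.48%. The insulin receptor substrate gene irs2b was 4.78-fold lower and the growth hormone receptor gene ghrb 3.32-fold lower, both past the threshold in DESeq2's test only. The level of ghrb was 208, 63.8 and 75.0 CPM in wild-type fish and 27.1, 40.0 and 37.1 CPM in mutants, and its log2 fold change moved from -1.73 to -1.01 without Wild-type library 1 and was 0.43 in swimming fish (adjusted p = 0.62).

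The other genes that fell do not share a list. The calcium-binding phosphatase gene PPEF2 (1 of 2) had 22.5, 14.8 and 31.5 CPM in wild-type fish and 1.06, 1.63 and 1.08 CPM in mutants (log2 fold change -4.16 ± 0.37, adjusted p = 0.012). The deSUMOylating peptidase gene desi1a was 12.6-fold lower, the ephrin gene efna1b 4.75-fold, the Ras exchange factor gene rasgef1ba 4.78-fold, and the arrestin domain gene arrdc2 5.57-fold. The myc family gene mych was 3.41-fold lower, and gsdf, a growth factor gene of the TGF beta family best known from the fish gonad, stood at 6.93 ± 3.11 against 0.644 ± 0.204 CPM. The growth factor binding protein gene fgfbp2a had 7.96, 5.37 and 4.29 CPM against 0.125, 0.125 and 0.394 CPM. The uncharacterised gene si:dkey-201c13.2 had 3.44, 4.49 and 3.46 CPM against 0.188, 0 and 0 CPM, which is at least 17.0-fold lower when each mutant library is set at the floor of 3 counts. A further gene with only a provisional name, wu:fb13g09, had 140.2, 109.8 and 160 CPM against 23.8, 26.3 and 19.6 CPM (log2 fold change -2.54 ± 0.27, adjusted p = 0.019). At rest, none of these genes overlapped between the groups. The count filter had fixed this for fgfbp2a, si:dkey-201c13.2 and si:ch211-89o9.4, since they passed it only through the wild-type fish.

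The 7 genes that rose reached at most 62.1 CPM in any library, and 1 of them belonged to the 51 tested genes for matrix and remodelling. The gene lum encodes lumican, a proteoglycan that orders collagen fibrils. It had 14.3, 10.9 and 9.41 CPM in wild-type fish and 40.4, 38.4 and 53.3 CPM in mutants (log2 fold change 1.94 ± 0.27, adjusted p = 0.044). The transglutaminase gene tgm2a, whose mammalian product cross-links matrix proteins, had 1.09, 1.97 and 0.576 CPM against 7.32, 13.4 and 9.94 CPM (log2 fold change 3.13 ± 0.45, adjusted p = 0.048). Both were higher in all 3 mutants by more than the spread within either group. The major vault protein gene mvp had 5.25, 7.67 and 10.8 CPM against 62.1, 53.2 and 29.8 CPM (log2 fold change 2.62 ± 0.38, adjusted p = 0.049). The integrin gene itgam, which encodes a subunit of the leukocyte complement receptor, had 0.362, 0.219 and 0.256 CPM against 13.6, 8.72 and 2.86 CPM (log2 fold change 4.89 ± 0.67, adjusted p = 0.040). In both of these, mutant library 3 was the lowest of the mutants. The genes itgam and lrfn5b passed the count filter only through the mutants, which fixed that their groups do not overlap. The sphingomyelinase-like gene smpdl3b (5.26-fold), the aminopeptidase gene ANPEP (3 of 5) (4.89-fold) and the neuronal adhesion gene lrfn5b (18.6-fold) were the others. Over the matrix list the median was 0.66, and 20 of 51 (39.2%) lay above the wild-type range in all mutants, against 10.7% of all genes. DESeq2 called 10 higher (19.6%, against 2.12%) and 2 lower (3.92%, against 2.48%). Those higher included fn1a, which encodes fibronectin (3.81-fold), and the growth factor gene tgfb3 (2.82-fold).

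The summed level of collagen genes was above the wild-type range in mutant libraries 3 and 2 but not in library 1. The summed level of the collagen list was 1742, 2322 and 2203 CPM in wild-type fish and 1906, 4297 and 9949 CPM in mutants, so that mutant library 1 lay within the wild-type range. The major fibrillar collagen gene col1a1a followed this order, with 231, 353 and 344 CPM against 328, 984 and 2616 CPM. EdgeR called 0 of the 34 tested collagen genes. At an unadjusted p under 0.05, 12 were higher (35.3%, against 9.91% of all genes) and 3 lower (8.82%, against 7.34%). DESeq2 called 2 higher (5.88%, against 2.12% of all genes), col1a1a and col1a2, and 3 lower (8.82%, against 2.48%). The median was 0.66, and it was 0.21 without mutant library 3.

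Immune transcripts were high in mutant libraries 1 and 2. The summed level of the 32 tested and 14 less abundant markers of macrophages, neutrophils and lymphocytes was 496, 309 and 494 CPM in wild-type fish and 2132, 2291 and 449 CPM in mutants. Mutant libraries 1 and 2 were thus above the wild-type range and library 3 within it. The myeloid factor gene spi1b had 2.80, 2.52 and 3.59 CPM against 17.7, 31.4 and 3.35 CPM, and the leukocyte actin-bundling gene lcp1 had 27.4, 12.6 and 18.9 CPM against 107, 162 and 22.4 CPM. Neutrophil genes were high in 1 library only, with lyz, which encodes lysozyme, at 457 CPM and mpx, which encodes myeloperoxidase, at 73.9 CPM in mutant library 1, beside 4.06 CPM or less and 1.00 CPM or less in the other 5 libraries. EdgeR called 0 of the 32 markers. At an unadjusted p under 0.05, 25 were higher (78.1%, against 9.91% of all genes) and 0 lower. DESeq2 called 12 of the markers higher (37.5%, against 2.12%) and 0 lower, and their median log2 fold change was 2.02. Without mutant library 3, 22 of them rose and 0 fell, against 2.5% of all genes that rose in that fit. With any other single library left out 0 passed, and the median was 1.24 without mutant library 2.

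Antigen presentation genes were high in the same libraries. Of 30 tested genes for antigen presentation 27 had a positive log2 fold change, with a median of 1.26, and their summed level was 1565, 1108 and 1429 CPM against 3652, 3792 and 1683 CPM. EdgeR called 0 of the 30. At an unadjusted p under 0.05, 16 were higher (53.3%, against 9.91% of all genes) and 0 lower. DESeq2 called 10 higher (33.3%, against 2.12%). Without mutant library 3 edgeR called 10 higher, and with any other single library left out it called 0. The invariant chain gene cd74b had 69.1, 34.7 and 76.1 CPM against 277, 417 and 80.9 CPM. It also belongs to the immune cell markers, so these lists are not separate sets of genes. The class II transactivator gene ciita had 2.35, 0.877 and 1.54 CPM against 15.5, 12.5 and 1.87 CPM. The class I gene mhc1uba did not follow the immune markers, with 5.34, 1.86 and 25.5 CPM against 528, 42.6 and 314 CPM. Complement and acute phase genes had a median of 1.15, with a summed level of 282, 273 and 279 CPM against 624, 548 and 214 CPM. EdgeR called 0 of 16 and DESeq2 4 higher (25%, against 2.12% of all genes). Without mutant library 3 edgeR called 5 of 15 higher and 0 lower, against 2.5% of all genes that rose in that fit. The other values here are from all 6 libraries. At an unadjusted p under 0.05, 7 were higher (43.75%, against 9.91% of all genes) and 0 lower. The summed level of cell cycle genes followed another order. The median of these genes was 0.72, but their summed level was above the wild-type range in library 3 only. It was 1178, 1308 and 1130.3 CPM in wild-type fish and 1036, 1052 and 1586 CPM in mutants. EdgeR called 0 of 31. At an unadjusted p under 0.05, 14 were higher (45.2%, against 9.91% of all genes) and 1 lower. DESeq2 called 5 higher (16.1%, against 2.12%), among them mki67 and mcm6. Without mutant library 3 edgeR called 5 of 31 higher and 1 lower, against 2.5% and 1.19% of all genes in that fit. The median of the cell cycle list was then 0.89, so the order of the sums does not hold gene by gene. Whether more immune cells or more RNA per cell stood behind such levels cannot be told apart in bulk muscle, and the part of immune cells in mvp, itgam and the other genes that rose was not tested.

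Among 65 tested heat shock and chaperone genes hspb6 fell and 0 rose, and the median was 0.16 (-0.06 to 0.26 with each library left out). DESeq2 called 3 higher (4.62%, against 2.12% of all genes), pdia3, hsp90b1 and calr3a. The disulfide isomerase gene pdia3 had 23.5, 26.3 and 27.9 CPM in wild-type fish and 69.9, 87.3 and 56.3 CPM in mutants (log2 fold change 1.47 ± 0.25, adjusted p = 0.074, and 6.4e-05 in DESeq2). The genes hsp90b1 (2.17-fold) and calr3a (2.35-fold), which encode the chaperones Grp94 and calreticulin, lay above the wild-type range too (adjusted p = 0.11 and 0.14 in edgeR).

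**Figure D4:**
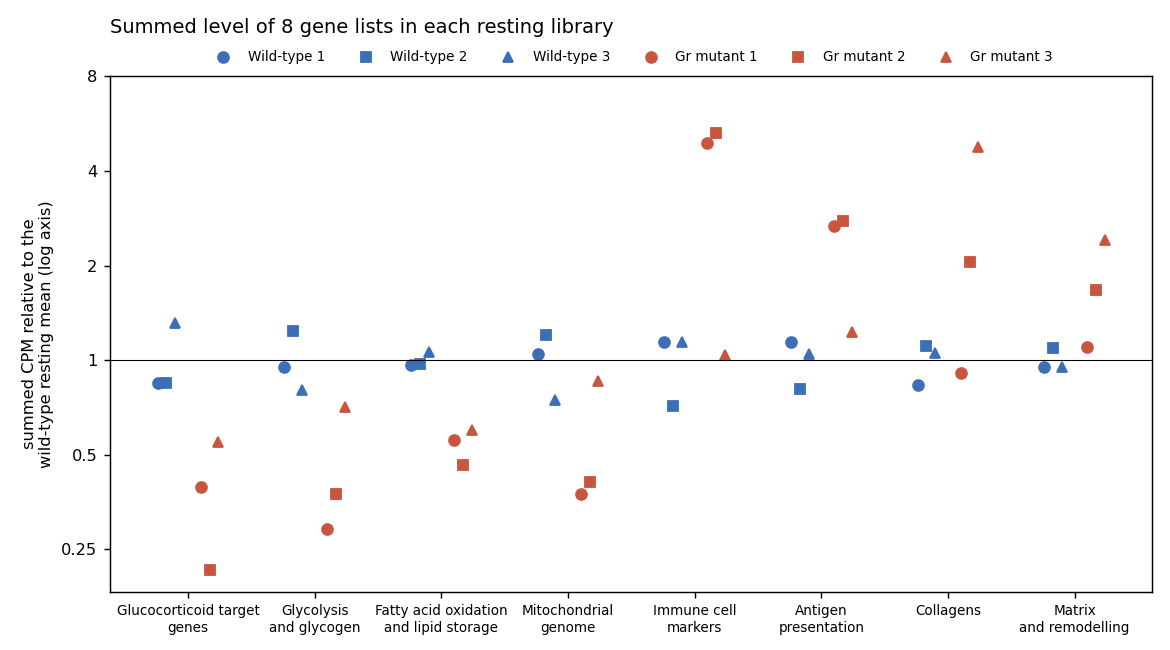
The summed CPM of 8 gene lists is drawn for each resting library relative to the mean of the 3 wild-type libraries on a log axis, blue for wild-type and red for Gr mutant, with a circle, square and triangle for libraries 1, 2 and 3. All mutant libraries lie below the wild-type libraries for glucocorticoid targets (2536 CPM or less against 3904 CPM or more), whereas immune markers are high in mutant libraries 1 and 2 (2132 and 2291 CPM) and collagens in libraries 2 and 3 (4297 and 9949 CPM).

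Markers of other tissues gave 0 calls in edgeR. Erythrocyte markers summed to 258 to 540 CPM in wild-type fish and 261 to 729 CPM in mutants. Skin and scale markers summed to 716 to 1064 and 396 to 1142 CPM, and slow muscle markers to 2033 to 8592 and 4668 to 6356 CPM. These ranges overlapped between the genotypes, as did those of vessel, nerve, liver, pancreas and gut, and pigment cell markers. Oocyte markers, of which 3 of 25 were tested, were low in every library but did not overlap. They summed to 7.33, 39.1 and 11.4 CPM in wild-type fish and 5.76, 6.96 and 3.35 CPM in mutants. Of the 136 markers tested in these 9 lists, 12 were higher (8.82%) and 9 lower (6.62%) at an unadjusted p under 0.05. The shares of all genes were 9.91% and 7.34%. DESeq2 called 4 higher (2.94%) and 3 lower (2.21%), against 2.12% and 2.48% of all genes.

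The number of genes past the threshold depended on single fish. Leaving out Gr mutant library 3 raised the count from 35 to 544 (3.69% of 14747 genes), 369 higher (2.5%) and 175 lower (1.19%), and turned the split from mostly lower to mostly higher. Leaving out Wild-type library 2 or 3 gave 0 genes, Gr mutant library 2 gave 1, Wild-type library 1 gave 21 and Gr mutant library 1 gave 55. At an unadjusted p under 0.05, 1807 and 1675 genes passed without Wild-type library 2 and 3. The direction of the 35 genes did not change in any of these fits in which they were tested. Their groups do not overlap in these same libraries, so a change of sign was hardly possible. Of the 544 genes, 33 were among the 35. Glucocorticoid targets had 14 lower and 1 higher of 58 in that fit and 0 calls without Wild-type library 2, Wild-type library 3 or Gr mutant library 2, and their median stayed between -1.23 and -0.71 over the 6 fits.

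The swimming fish gave a second set of 6 libraries from other fish with the same genotype contrast. There, 426 of 14106 genes passed edgeR's test (3.02%), 92 higher (0.652%) and 334 lower (2.37%) in Gr mutants. Of the 35 genes past the threshold at rest, 34 were tested in swimming fish, 33 had the same sign (97.1%, against 65.7% of the 13837 genes tested in both), and 23 passed the test there with the same sign (67.6% of the 34, and 5.4% of the 426). These 23 were 21 of the 27 lower genes and 2 of the 7 higher ones, lum and lrfn5b. Across the 34 genes, which are no independent replicates, the 2 sets of log2 fold changes had a Pearson correlation of 0.83 and a Spearman correlation of 0.73. For fkbp5 the level was 462, 726 and 33.5 CPM in wild-type swimming fish and 1.14, 0.602 and 0.507 CPM in mutants, and for hspb6 537, 904 and 213 CPM against 8.24, 6.78 and 6.08 CPM. Both genes were low in all 6 mutants of the series. The targets klf9, tsc22d3, lpin1, hif1al and cebpd, short of edgeR's threshold at rest, fell in swimming fish, with log2 fold changes of -6.48, -2.76, -1.97, -3.31 and -3.01. Others did not pass there, with values of -2.45 for sgk1 (adjusted p = 0.11), -1.33 for foxo1a (0.076), -1.24 for nfkbiab (0.055), -2.64 for ddit4 (0.055) and -0.36 for foxo3b (0.59), the last with overlap between the genotypes.

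Several resting differences were not seen in the swimming fish. The csrp1b level was 23.7, 0.372 and 0.142 CPM in wild-type swimming fish and 0.0763, 0.151 and 0.507 CPM in mutants, so that only 1 of these 3 wild-type fish had a level like that of the resting wild-type fish, and the gene did not reach the count filter there. The gene si:ch211-155m12.1, which fell at rest (log2 fold change -4.81), was the 1 gene of opposite sign. Its levels in swimming fish were 4.06, 0 and 0 CPM in wild-type fish and 0.153, 3.46 and 5.19 CPM in mutants. The gene itgam had 2.91, 0.186 and 1.28 CPM against 3.89, 3.61 and 2.79 CPM and mvp had 10.3, 5.12 and 21.2 CPM against 18.9, 18.4 and 19.6 CPM, and neither passed the test there. The median of the immune markers was 0.13 in swimming fish against 2.02 at rest, that of antigen presentation -0.06 against 1.26, and that of glucocorticoid targets -1.25 against -0.94 with 13 of 54 lower. Respiratory chain genes had a median of -1.02 with 29 of 83 lower, and mitochondrial genome genes -1.77 with 11 of 13 lower. In swimming fish the medians of erythrocyte, adipocyte, pigment cell and slow muscle markers were -1.81, -1.32, -1.25 and -0.60. Those of the other marker lists ran from -0.26 (liver) to 0.57 (pancreas and gut). The part of these tissues in the mitochondrial levels was not tested. These differences between list medians were not tested. In the test of the interaction, made gene by gene, edgeR called 0 of 16056 genes (0%), 1347 (8.39%) at an unadjusted p under 0.05, and DESeq2 called 28 (0.174%). The smallest adjusted p of edgeR's interaction test was 0.49.

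**Figure D5:**
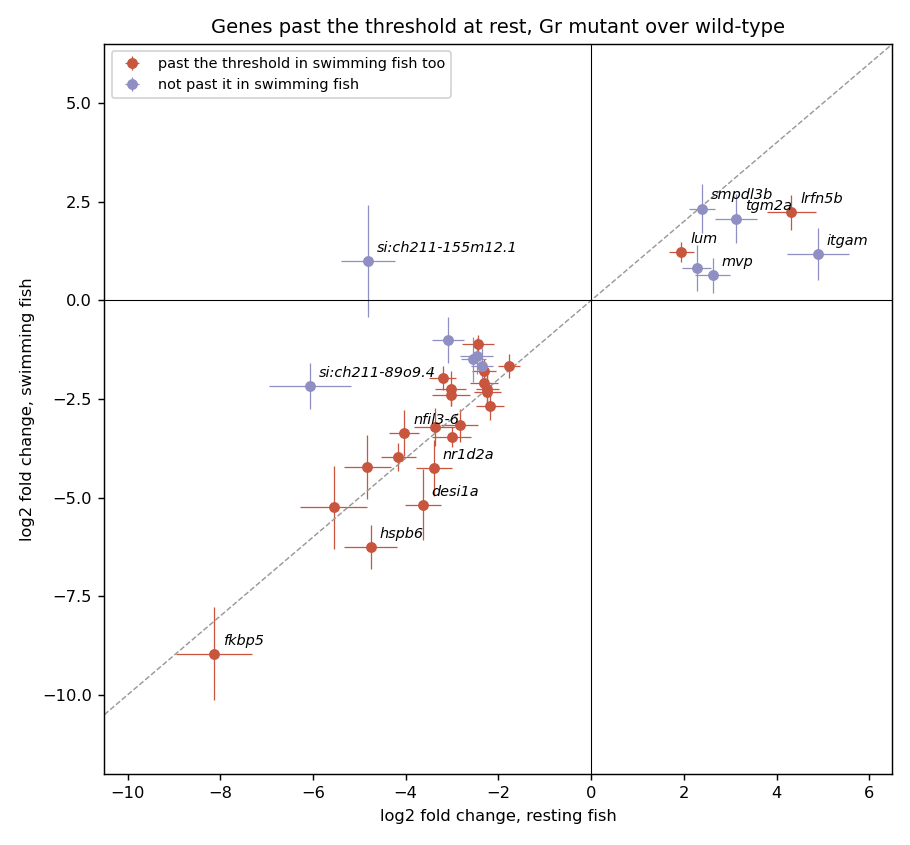
Each point is 1 of the 34 genes past the threshold at rest that were also tested in swimming fish, with the log2 fold change of Gr mutant over wild-type at rest on the horizontal axis and in swimming fish on the vertical axis, bars of 1 SE and a dashed line of equality. The 23 red points passed the test in both comparisons, and si:ch211-155m12.1 is the 1 gene of opposite sign.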

How the data were processed

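White muscle RNA of 12 zebrafish libraries (4 groups of 3) was sequenced by the authors, and the 6 resting libraries were analysed here, with the 6 swimming libraries as a further comparison. Per the labels and the methods of the study, epaxial white muscle was dissected, libraries were made with a TruSeq RNA kit that does not mark strand, reads were aligned with TopHat2 (2.0.5) to GRCz10, secondary alignments were removed with SAMtools (0.1.18) and reads were counted per gene with HTSeq (0.5.3p9). The deposited values used here are those raw gene counts, taken before the scaling by library size estimates that the study describes. The deposited columns of fold changes and p-values, from the authors' comparisons with DESeq, were not used.

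Reads of overlapping or antisense genes cannot be told apart in unstranded counts, and genes with near-identical copies, such as those of myosins, actins and class I antigens, are uncertain. Of the identifiers, 26121 matched a current symbol. No coordinates or sequences are given, because a genome of this build was not used here.

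Tests were run in R 4.3.3 with edgeR 4.0.16, on genes with 10 or more counts in 3 or more of the 6 libraries. They used TMM factors, the quasi-likelihood F-test, Benjamini-Hochberg adjustment over all genes tested and a threshold of 0.05. A prior count of 2 was set only for the log2 CPM of the principal components and library deviations. The tests kept edgeR's default. A standard error is the log2 fold change divided by the square root of the F statistic. The interaction of genotype and swimming was fitted over 12 libraries. Code was tested on simulated data. Alternatives were DESeq2 1.42.0, limma-voom (limma 3.58.1), size factors in place of TMM, other count filters (none, 50 counts, or a mean of 10 counts blind to the groups), other thresholds, 1 fit of all 12 libraries, the replicate number as a block and leaving out each library. Scaling to library totals alone was added after seeing the data. Figures were drawn with matplotlib 3.10.9.

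The members and the 39 gene lists (28 of pathways, 11 of markers) were chosen with earlier results of these data known. Genes were named by rule, namely the cortisol list and fixed targets, the 15 largest rises and falls with a mean of 100 or more counts per library, list members past the threshold, the up to 4 members of smallest p in lists with fewer than 2 such members, and the 5 most abundant genes. Other names were chosen after their values were seen. Counts per library were 11076993 to 13894240 in the resting libraries and 7688323 to 12936797 in the swimming libraries. Gr mutant swimming libraries 2 and 3 had the fewest, 7688323 and 8606580. A count of 0 allows up to 3 counts, and this floor covers counting error only.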

Additional observations from a re-analysis of the deposited data

How the results depend on the processing

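With 3 fish per group, single libraries set how many genes passed. The signs of the 35 genes did not change under any alternative that tested them. These genes were picked from the same libraries with groups that do not overlap, so their signs could hardly change. Leaving out each library in turn gave 0 to 544 genes in all, 0 to 369 higher and 0 to 175 lower. DESeq2 called 691 genes (318 higher, 373 lower), no count filter 126 (26, 100), 1 fit of all 12 libraries 216 (86, 130), an adjusted p under 0.1 163 (52, 111), and an unadjusted p under 0.05 2589 (1487, 1102). Limma-voom called 26 genes with 2 higher, the filter blind to the groups 27 with 4 higher, and library totals without a scaling factor, chosen after seeing the data, 51 with 45 lower. The share of higher genes was 20% in the first test and 46.0% in DESeq2's. Library totals moved the median of all genes from 0.05 to 0.15. The cause of these shifts was not tested.

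With the replicate number as a block, 0 genes passed in either direction (2296 at an unadjusted p under 0.05), and the smallest adjusted p was 0.067. Deviations of same-numbered libraries from their group means had correlations of 0.18, -0.04 and -0.13, and pairs with different numbers ran from -0.25 to 0.26. With 3 libraries per group, whose deviations sum to 0, this check cannot decide whether the numbers pair the samples. Under the block, lyz had a log2 fold change of -0.092.

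The share of the genes called at rest with the same sign in swimming fish was 84.0% with DESeq2, 100% with limma-voom, 79.5% at an unadjusted p under 0.05, and 71.0 to 100% with each resting library left out in turn. It had no value without Wild-type library 2 or 3 or Gr mutant library 2, which left no called gene that was tested in swimming fish. For the interaction, DESeq2 called 28 genes, 1347 passed at an unadjusted p under 0.05, and 0 passed with any of the 12 libraries left out. Over all alternative fits, log2 fold changes ran from -1.85 to 6.39 for lyz, -0.98 to 1.99 for mt2, -0.25 to 0.77 for actc1b, -0.23 to 0.31 for nr3c2 and -0.28 to 0.42 for myhc4 (-0.099 without Wild-type library 3). None of these 5 genes passed the test. Other results for single genes kept their sign.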

Other observations

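Genes of sterol synthesis mostly had negative log2 fold changes, and 1 wild-type fish set the size of the difference. Of 25 tested genes 22 had a negative log2 fold change, with a median of -0.82 (-0.16 without Wild-type library 3), and the summed level was 198, 215 and 500.1 CPM in wild-type libraries and 193, 174 and 176 CPM in mutants. The gene msmo1, which encodes a methylsterol oxidase, had 9.23, 4.38 and 47.3 CPM against 3.75, 4.14 and 4.43 CPM, and hmgcra, which encodes the rate-limiting reductase, had 2.17, 2.19 and 24.7 CPM against 0.125, 0.752 and 0.985 CPM. Wild-type library 3 stood above all others for both. EdgeR called 0 of the list and DESeq2 called msmo1 lower. At an unadjusted p under 0.05, 1 was higher (4%, against 9.91% of all genes) and 8 lower (32%, against 7.34%).

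The proteasome list as a whole had a median of 0.20 over 54 genes (-0.19 to 0.41 with each library left out), and the members named here encode parts of the immunoproteasome. The catalytic subunit gene psmb10 had 7.69, 1.97 and 9.67 CPM in wild-type fish and 34, 41 and 9.94 CPM in mutants, and the activator gene psme1 had 35.2, 21.6 and 41.8 CPM against 84.7, 77.8 and 46.6 CPM. Both were highest in mutant libraries 1 and 2, and library 3 lay just above the wild-type range. The activator gene psme1 passed neither edgeR's nor DESeq2's test. EdgeR called 0 of the list, and DESeq2 called 3 higher (5.56%, against 2.12% of all genes), psmb10 among them. At an unadjusted p under 0.05, 5 were higher (9.26%, against 9.91%) and 1 lower (1.85%, against 7.34%). Without mutant library 3 edgeR called 3 of 54 higher and 0 lower, against 2.5% of all genes that rose in that fit. Of 30 interferon response genes 23 had a positive log2 fold change, with a median of 0.70 that became -0.092 without Gr mutant library 2. EdgeR and DESeq2 called 0 of them, and 4 were higher at an unadjusted p under 0.05 (13.3%, against 9.91% of all genes).

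Cytokine and NF-kB genes had a median of 0.39, with 0 of 70 called in edgeR. At an unadjusted p under 0.05, 14 were higher (20%, against 9.91% of all genes) and 4 lower (5.71%, against 7.34%). DESeq2 called 6 higher (8.57%, against 2.12%) and 1 lower. Without mutant library 3 edgeR called 9 of 70 higher and 1 lower, against 2.5% and 1.19% of all genes in that fit. The NF-kB subunit gene rel had 2.26, 1.32 and 2.3 CPM against 8.70, 8.90 and 4.14 CPM, above the wild-type range in every mutant. Genes of polyamine and nucleotide metabolism had a median of -0.21. DESeq2 called 5 of 33 lower (15.2%, against 2.48% of all genes) and 1 higher (3.03%, against 2.12%). Those lower included smox, which encodes spermine oxidase, with 35.5, 44.9 and 82.8 CPM against 11.07, 9.59 and 21.9 CPM. Another was oaz2a, which encodes an antizyme of ornithine decarboxylase, with 143, 111 and 142 CPM against 60.7, 71.4 and 70.7 CPM. In the Gadd45 and p53 list gadd45ba fell, and DESeq2 called 3 of 36 lower (8.33%, against 2.48% of all genes) and 0 higher. Among them was sesn1, which encodes a sestrin, with 117, 93.7 and 138 CPM against 73.0, 25.3 and 18.7 CPM. Cytosolic ribosomal protein genes gave 0 calls of 81 in edgeR and in DESeq2. At an unadjusted p under 0.05, 2 were higher (2.47%, against 9.91% of all genes).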
